A study of Homo sapiens and Mus musculus with 213 samples.

Results

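The genes of the collagen chains, the laminin chains and the integrin subunits were examined in RNA-seq libraries of 3 HEK293T lines. Members were the protein-coding genes whose GENCODE symbol has the form of a collagen chain (COL, a number, A, a number), a laminin chain (LAMA, LAMB or LAMC with a number), an integrin alpha subunit (ITGA with a number or letter) or an integrin beta subunit (ITGB with a number). This rule found 82 of the 58336 genes listed, of which 44 were collagens, 12 laminins and 26 integrins. HEK293T is an immortalized line from human embryonic kidney. MYC WT was the unedited line, with the natural G-quadruplex (G4, a 4-stranded fold of G-rich DNA) motif in the MYC promoter. MYC MUT carried CRISPR-made mutations in the G-runs of that motif that prevent the fold. SWP had the motif replaced by a different G4-forming sequence, taken from the promoter of another gene. All 3 lines were grown in the same medium without further treatment, and the study asked what the loss or exchange of the G4 does to transcription. Each line had 3 libraries, whose titles number them as biological samples. Edited lines were clonal populations selected as homozygous for the edit, and the sources used here do not say how many clones the 3 libraries of a line came from. An effect of the edit and a difference between clones therefore cannot be told apart. Likewise, the library names of MYC WT carry a sequencing pool that those of MYC MUT and SWP lack, so that pool and line cannot be told apart.

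Collagens are secreted proteins whose 3 alpha chains wind into a triple helix, and the kind of chain decides whether the product becomes a banded fibril, a network in the basement membrane, a fibril-associated linker or a protein anchored in the cell membrane. Laminins are cross-shaped heterotrimers of 1 alpha, 1 beta and 1 gamma chain that polymerize into the first layer of a basement membrane. Integrins are cell-surface receptors built of 1 alpha and 1 beta subunit, and they connect laminins, collagens and other matrix proteins to the actin cytoskeleton. In kidney, the type IV collagen and laminin isoforms of the filtration barrier and of the tubules differ.

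The libraries held 65024354 to 98497026 reads assigned to genes. Values are the deposited normalized counts, that is, reads of a gene divided by 1 size factor per library. Fold changes are differences of log2(normalized count + 1), a scale that compresses changes at low counts, and were tested with limma over the 20884 genes with a mean of at least 10. Called genes had an adjusted p below 0.05 together with a change of more than 0.5 on the log2 scale. MYC, whose promoter was edited, had 20020.3, 28396 and 21580.1 normalized counts in the MYC WT libraries, 10693, 11176 and 12399.8 in MYC MUT and 14480.1, 24743 and 25245 in SWP. Its change was -1.02 (adjusted p = 0.0018) in MYC MUT and -0.15 (adjusted p = 0.71) in SWP. Of the markers of HEK293T character, all 6 were above the minimum. Their summed normalized counts were 77129 to 88563 in MYC WT, 80197 to 91762.5 in MYC MUT and 68373 to 77247 in SWP, mostly from VIM. Single markers moved apart from this sum. In MYC MUT, NEFL (1.07) and KRT8 (0.77) were called higher and NEFM (-0.585) lower. In SWP, INA (1.44) was called higher and NEFL (-0.54) and KRT8 (-1.27) lower. VIM and KRT18 were called in neither line against MYC WT. Of 10 markers of mature kidney epithelium, 3 were above the minimum (LRP2, AQP1 and CUBN), and UMOD had no read. Summed fibroblast markers were 131 to 175 in MYC WT, 174 to 193 in MYC MUT and 141 to 199 in SWP, with 3 of 7 above the minimum. Summed endothelial markers (2 of 5 above the minimum) were 24.7 to 47.2 in MYC WT, 88.6 to 95.3 in MYC MUT and 32.3 to 51.3 in SWP, and those of epithelium (4 of 4) were 587 to 779, 709.9 to 779.6 and 304 to 614. Of 5 blood markers, 1 was above the minimum and HBB had no read, with sums of 73.8 to 92.4, 98.0 to 113 and 60.7 to 73.8. The part of these markers in the results was not tested. In bulk RNA, fewer cells of a kind and less RNA per cell cannot be told apart.

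Some libraries stood apart from the others of their line, and did so more for the members than for other genes. Of the 62 members tested, 43 (69.4%) were highest in replicate 2 among the MYC WT libraries, against 37.0% of all genes tested. In the same line 37 (59.7%) were lowest in replicate 3, against 27.1% of all genes tested. In SWP, 49 of the 62 (79.0%) were lowest in replicate 1, against 41.9% of all genes tested. Within MYC MUT the library with the most highest values, replicate 3, held 25 of the 62 (40.3%, against 36.6% of all genes tested). Replicate 1 of that line was lowest for 27 (43.5%, against 34.8%). The median coefficient of variation of the members was 14.5% in MYC WT, 6.56% in MYC MUT and 15.0% in SWP. Over all genes tested it was 10.9%, 6.19% and 10.8%, so that the members of MYC MUT lay near the other genes. With MYC WT replicate 2 and SWP replicate 1 both left out, an alternative chosen after seeing the data, 29 members were called in MYC MUT against MYC WT and 10 in SWP against MYC WT, against 32 and 9 with all libraries. Without the 3 libraries numbered 1, which stood apart together in MYC WT and SWP, these counts were 35 and 7. Between the edited lines, leaving out SWP replicate 1 ended the calls of ITGA1 (0.44), ITGA3 (0.43) and COL5A1 (0.46) and added ITGA10 (0.74), COL23A1 (-1.13) and ITGB1 (-0.50). With all libraries, edgeR and DESeq2 also called COL23A1 (-0.88 each) and ITGB1 (-0.51 each) lower in MYC MUT than in SWP. Neither tool called ITGA1 there (0.48 and 0.47).

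**Figure D1:**
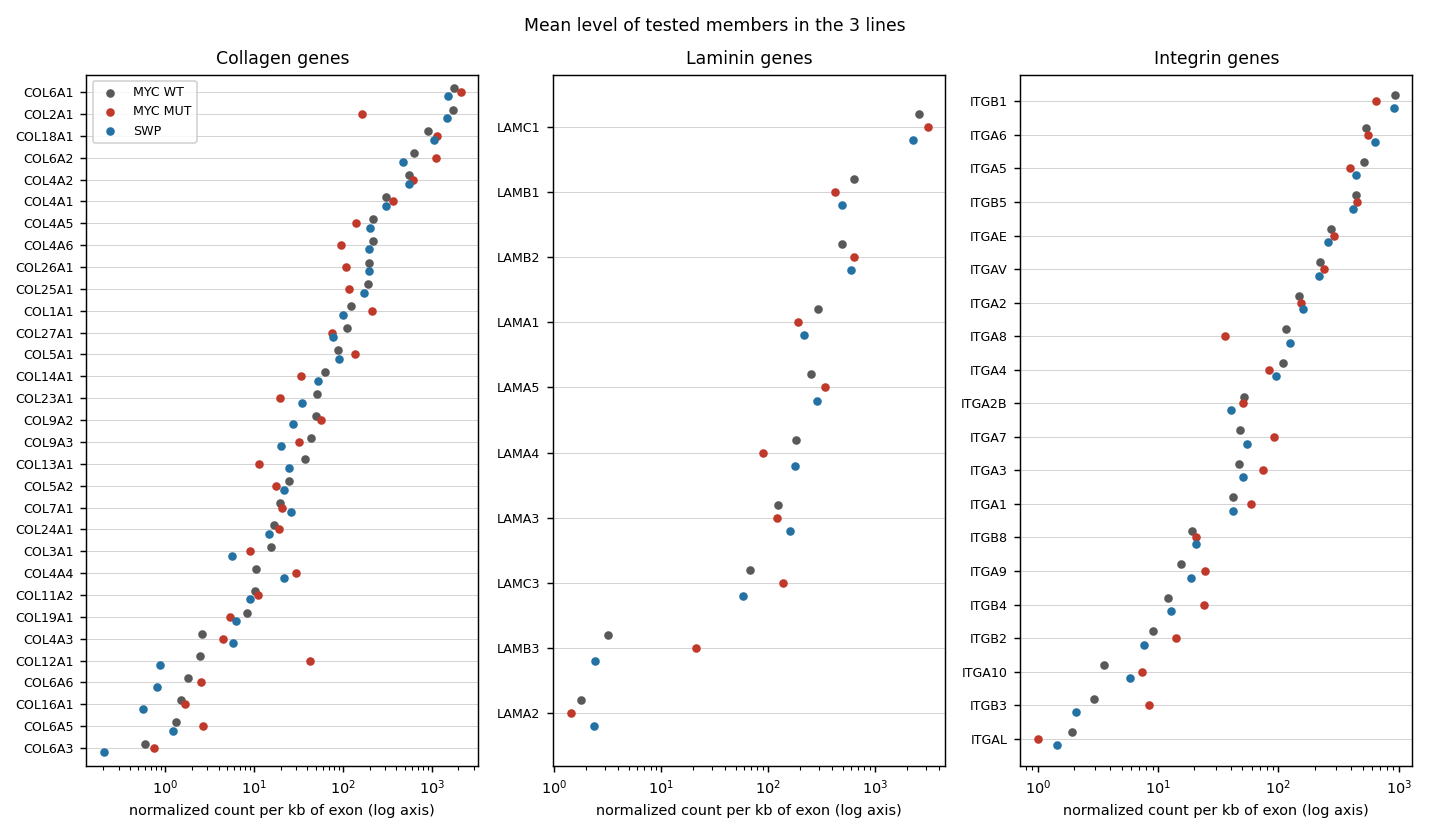
Mean normalized count per kilobase of exon (log axis) of 61 tested members in MYC WT (gray), MYC MUT (red) and SWP (blue), 1 dot per line (n = 3 libraries), ordered by MYC WT. LAMC1, COL6A1 and COL2A1 lead in MYC WT, and COL2A1 and COL12A1 are the collagens whose red dot lies farthest from the gray one.

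Per kilobase of annotated exon, the highest collagens in MYC WT were COL6A1 at 1775 ± 217 (SD, n = 3) normalized counts, COL2A1 at 1751 ± 73.0 and COL18A1 at 899 ± 86.5. COL6A1 and COL2A1, a chain of microfibril-forming type VI collagen and the chain of cartilage fibrils, did not differ beyond their spread. The laminin chain with the most reads was LAMC1, the gamma chain of most laminins, at 2599 ± 333 per kilobase, followed by LAMB1 at 643 ± 124 and LAMB2 at 491 ± 90.0, which lay within their spread of each other. Among alpha chains the order was LAMA1 (292 ± 56.8), LAMA5 (254 ± 49.1), LAMA4 (185 ± 36.9) and LAMA3 (123 ± 17.3), where LAMA1 and LAMA5, and LAMA5 and LAMA4, overlapped within their SDs. ITGB1, the beta subunit shared by most laminin and collagen receptors, led the integrins with 923 ± 70.6, ahead of ITGA6 (531 ± 56.5) and ITGA5 (514 ± 81.3), which overlapped. With the longest transcript in place of the union of exons, 7 of these 9 leading genes kept a place among the top 3 of their class. Annotated collagen exons have a median of 63 bases and 58.9% of them are no longer than the 75 sequencing cycles, against 133 bases and 14.7% over all protein-coding genes. For laminins these values are 144 bases and 4.20%, and for integrins 121 bases and 11.3%. The reads were aligned without splicing, and the part of exon length in the order of the classes was not tested.

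Below the minimum mean of 10 lay 20 members, 13 collagens, 1 laminin and 6 integrins, and these were not tested. COL22A1 had no read in any library. COL1A2, the partner of COL1A1 in the usual type I heterotrimer, had no read in MYC WT or SWP and a read in only 1 MYC MUT library, at 2.77 normalized counts, while COL1A1 had 1111 ± 92.2 (SD, n = 3) in MYC WT. COL11A1, a partner of COL2A1 in cartilage fibrils, was at 3.08, 0 and 1.93 in the MYC WT libraries and at 4.62, 2.92 and 1.95 in MYC MUT, and it had no read in SWP. COL9A1 was at 3.08, 6.73 and 6.74 in MYC WT, 0.924, 0.972 and 0.974 in MYC MUT and 1.15, 1.49 and 3.46 in SWP. COL10A1 of hypertrophic cartilage, both type VIII chains (COL8A1 and COL8A2), COL17A1, COL5A3, COL15A1, COL20A1, COL21A1 and COL28A1 were also too low, as were LAMB4, the leukocyte subunits ITGAD, ITGAM and ITGAX, and ITGA11, ITGB6 and ITGB7. The highest value of any of these 20 in any library was 21.4 normalized counts, and no fold is given for them.

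Of the 62 tested members, 17 were called higher and 15 lower in MYC MUT against MYC WT, that is 27.4% and 24.2%, where 11.3% and 10.1% of all tested genes were called higher and lower. In SWP against MYC WT, 2 members were called higher (3.23%, against 2.15% of all genes) and 7 lower (11.3%, against 2.98%). Under equal library totals in place of the deposited size factors, 64.2% of all calls in MYC MUT were higher, against 52.8%, while the members split 18 higher to 14 lower. Comparing the edited lines directly, 17 members were higher in MYC MUT than in SWP (27.4%, against 12.3%) and 10 lower (16.1%, against 8.31%). The median log2 fold change of the members was 0.121 in MYC MUT and -0.154 in SWP, against -0.003 and -0.055 over all genes tested. Values of 3 MYC MUT libraries did not overlap those of 3 MYC WT libraries for 41 of the 62, where 52.3% of all genes did not overlap. The same held for 14 of 62 in SWP against MYC WT, where the share over all genes was 24.6%. By class, in MYC MUT 7 collagens were called higher and 11 lower of 31, 2 laminins higher and 3 lower of 11, and 8 integrins higher and 1 lower of 20. With all libraries, the 9 members called in SWP were collagens, and for laminins and integrins limma, edgeR and DESeq2 each called 0, where an unadjusted p under 0.05 was reached by 4 of 11 laminins and 1 of 20 integrins in limma, 3 and 2 in edgeR, and 4 and 1 in DESeq2. This count of 0 rested on single libraries. Without MYC WT replicate 2, LAMA3 was called higher in SWP (0.50, adjusted p = 0.0153 in limma), and without SWP replicate 2, ITGA2B was called lower (-0.62, adjusted p = 0.0365). With MYC WT replicate 2 and SWP replicate 1 both left out, LAMA3 (0.50), LAMB2 (0.51) and ITGA9 (0.61) were called higher in SWP (adjusted p = 0.0122, 0.00144 and 0.0154). In the same limma fit COL12A1 and COL6A6 were no longer called lower in SWP (-0.79 and -1.04, adjusted p = 0.076 and 0.0935). The whole count in SWP was 7 with edgeR and 6 with DESeq2. With the replicate number as a block, a fit explained under the processing of the data, it was 11. At an adjusted p under 0.05 alone, 10 members passed in SWP, the tenth being LAMA3 at 0.40 (standard error 0.11, adjusted p = 0.043). The comparisons with MYC WT share its 3 libraries.

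**Figure D2:**
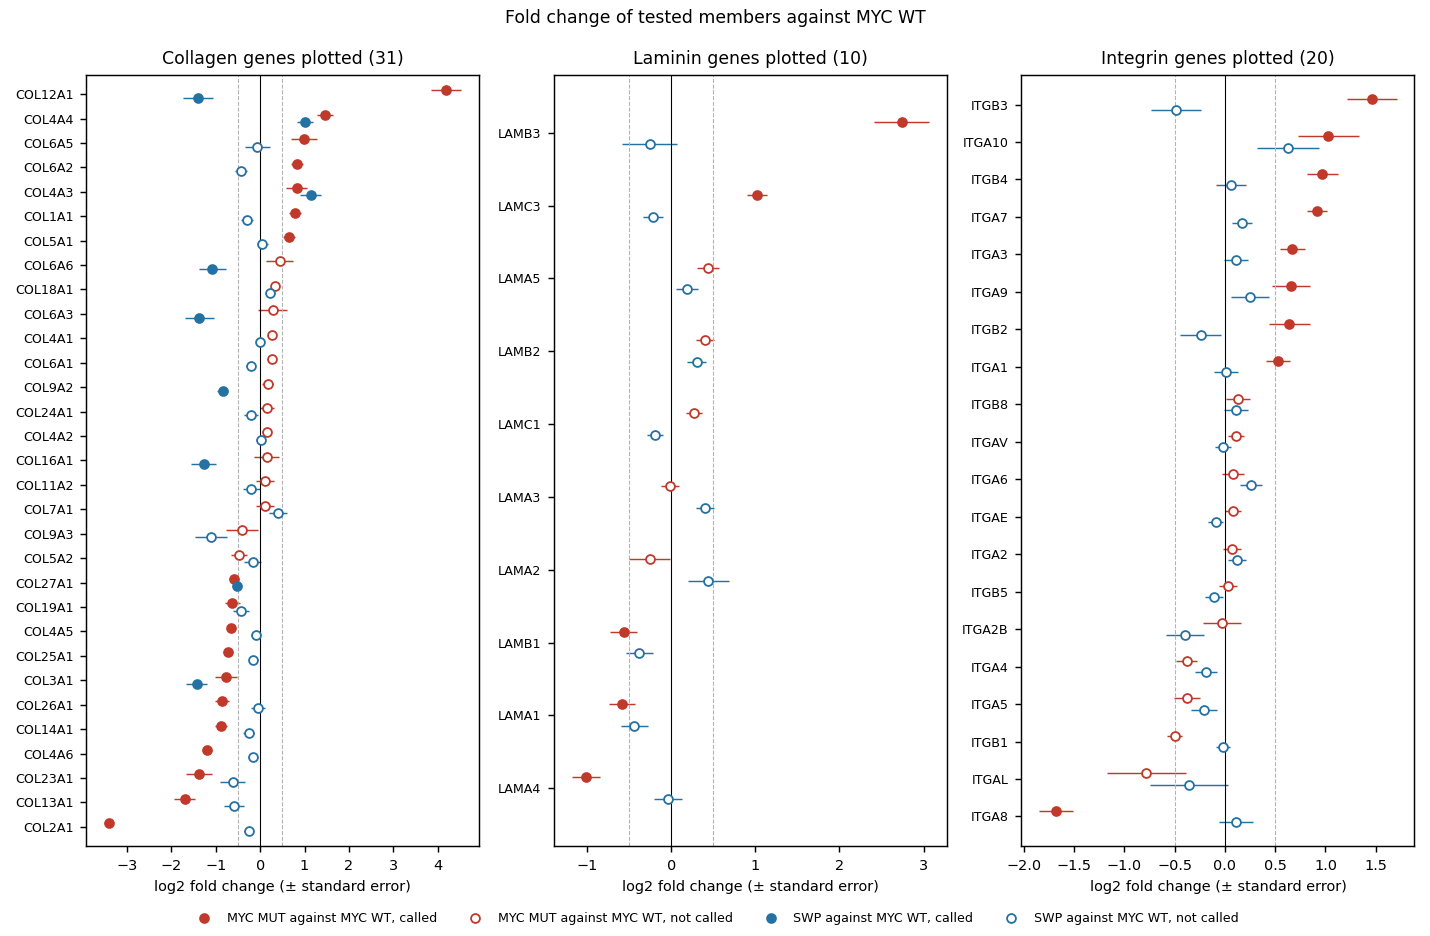
Log2 fold change (± standard error from limma) of 61 tested members in MYC MUT against MYC WT (red) and SWP against MYC WT (blue), with filled dots for called members and dashed lines at a change of 0.5 either way. COL12A1 is called in opposite directions, COL4A3 and COL4A4 are called higher in both lines, and with all libraries no laminin or integrin has a filled blue dot.

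Fibril-forming collagens held the deepest fall. COL2A1 (ENSG00000139219), the main collagen of cartilage, had 11526, 12202 and 11258 normalized counts in MYC WT, 988, 1149 and 1151 in MYC MUT and 8539.8, 9517 and 11337 in SWP. Every MYC MUT library was about an order of magnitude below every library of the other lines, and MYC WT and SWP overlapped. The MYC MUT mean was 9.40% of that of MYC WT, a log2 fold change of -3.41 (standard error 0.10, adjusted p = 1.0e-08), and its change in SWP was -0.26 (standard error 0.10, adjusted p = 0.14). COL2A1 made up 18.3% to 20.3% of all collagen counts in the MYC WT libraries, 1.74% to 2.04% in MYC MUT and 16.7% to 18.0% in SWP. Summed over the 44 collagens, the count was 61229 ± 5691 (SD, n = 3) in MYC WT, 57245 ± 1160 in MYC MUT and 56793 ± 6191 in SWP, with overlapping ranges, and the leading collagen was COL6A1 or COL4A2 in every MYC MUT library. COL11A2, which pairs with COL2A1 in cartilage fibrils, was low in all lines (76.7, 82.4 and 66.3), with a change of 0.11 (adjusted p = 0.69) in MYC MUT.

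Other chains of interstitial fibrils moved in both directions. COL1A1 had 1034, 1213 and 1086 normalized counts in MYC WT, 1843, 1927 and 1951 in MYC MUT and 725, 897 and 1116 in SWP. Its rise of 0.78 (standard error 0.13, adjusted p = 0.00091) in MYC MUT was called, while its partner COL1A2 was at or near 0, as given above. COL5A1, which helps to start fibrils, rose by 0.65 (adjusted p = 0.0023). COL3A1, the chain of reticular fibers, was lower in both edited lines, with 109.7, 130.2 and 78.0 in MYC WT, 66.6, 70.0 and 47.7 in MYC MUT and 29.8, 46.8 and 39.2 in SWP. The MYC MUT values lay between those of the other lines without overlap, and the log2 fold changes were -0.76 (standard error 0.25, adjusted p = 0.029) and -1.43 (standard error 0.25, adjusted p = 0.0038). The MYC MUT call of COL3A1 was lost in 6 of 22 alternatives, leaving out replicate 1 or 2 of MYC WT (-0.72 and -0.60) or replicate 1 or 3 of MYC MUT (-0.83 and -0.60) among them. With the replicate number as a block, COL3A1 was also called higher in MYC MUT than in SWP, at 0.66 (adjusted p = 0.0142). COL27A1 fell by 0.58 in MYC MUT and by 0.52 in SWP (adjusted p = 0.0020 and 0.014), where the first call was lost without MYC MUT replicate 3 (-0.45) and the second in 6 of 22 alternatives, among them equal library totals and the omission of MYC WT replicate 1 or SWP replicate 3. COL5A1 and COL27A1 lie outside the rule for named genes. COL5A2 and COL24A1 were not called in either line.

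Type IV collagen forms the network of basement membranes from 6 chains whose genes lie head to head in 3 pairs, so that both genes of a pair are transcribed away from a shared stretch of DNA. The chains of the first pair make the network found in all basement membranes, and those of the other pairs make networks of fewer tissues, kidney among them. RefSeq promoters on GRCh38.p14 place the starts of COL4A1 and COL4A2 127 bases apart on chromosome 13 and those of COL4A3 and COL4A4 419 bases apart on chromosome 2. COL4A5 starts 380 and 1416 bases from the 2 starts given for COL4A6 on the X chromosome. The stretches below are the parts of the 250 bases before the starts of COL4A2, COL4A3 and COL4A5 that no annotated exon covers, shown because each lies between the genes of a pair whose calls were the same. They are at chr13:110307158-110307257, chr2:227164454-227164623 and chrX:108439588-108439837, all on the plus strand, and capitals mark the GC box GGGCGG on either strand.
COL4A1/COL4A2: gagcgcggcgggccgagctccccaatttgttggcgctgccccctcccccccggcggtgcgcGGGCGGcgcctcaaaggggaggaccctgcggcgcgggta
COL4A3/COL4A4: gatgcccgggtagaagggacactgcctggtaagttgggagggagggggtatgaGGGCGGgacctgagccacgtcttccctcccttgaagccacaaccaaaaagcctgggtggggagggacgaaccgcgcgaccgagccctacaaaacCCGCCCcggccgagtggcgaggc
COL4A5/COL4A6: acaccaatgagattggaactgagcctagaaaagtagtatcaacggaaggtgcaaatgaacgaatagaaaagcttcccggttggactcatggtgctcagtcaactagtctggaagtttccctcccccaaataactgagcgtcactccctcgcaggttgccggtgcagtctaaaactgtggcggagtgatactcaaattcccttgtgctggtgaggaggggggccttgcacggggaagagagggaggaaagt
The GC box occurs once in the first stretch, 2 times in the second and 0 times in the third. Counted per gene, it is found in 48.3% of the 27305 genes with a RefSeq promoter of 300 bases (250 before to 50 after the start). It is in 60.3% of the 58 members there, and only the members were limited to protein-coding genes. A G4 motif (4 runs of at least 3 G with loops of 1 to 7 bases, either strand) is in the second stretch only. This motif is found in 27.9% of those genes and 51.7% of the members. Members called in MYC MUT against MYC WT held it in 10 of 19 cases, and those not called in 16 of 25. Each match is a description of the letters only.

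Within each pair both genes had the same calls, and the pairs differed from each other. COL4A1 and COL4A2, the most abundant pair, were not called in any comparison. COL4A1 averaged 4535 ± 569 (SD, n = 3) normalized counts in MYC WT, 5441 in MYC MUT and 4532 in SWP, and its change of 0.27 (standard error 0.09, adjusted p = 0.042) in MYC MUT was under the fold threshold, while that of COL4A2 was 0.15 (standard error 0.10, adjusted p = 0.25). In the second pair, COL4A4 had 125, 136 and 116 in MYC WT, 293, 382 and 370.2 in MYC MUT and 195, 289 and 286 in SWP, and COL4A3 had 23.6, 32.6 and 39.5 in MYC WT, 54.5, 57.4 and 55.5 in MYC MUT and 57.3, 91.4 and 65.7 in SWP. All libraries of both edited lines lay above all those of MYC WT for either gene. COL4A4 changed by 1.46 (standard error 0.17, adjusted p = 7.7e-05) in MYC MUT and 1.01 (standard error 0.17, adjusted p = 0.0036) in SWP, and COL4A3 by 0.82 (standard error 0.23, adjusted p = 0.016) and 1.14 (standard error 0.23, adjusted p = 0.0097). Neither was called between the edited lines, where COL4A4 differed by 0.45 (adjusted p = 0.057) and COL4A3 by -0.32 (adjusted p = 0.30). The MYC MUT call of COL4A3 was lost without MYC MUT replicate 2 (0.80, adjusted p = 0.0533). Of the exon bases of COL4A3, 6.82% are also annotated on the opposite strand to MFF-DT, which had a mean of 96.5 normalized counts against 53.0 for COL4A3, and whether counting used strand is not given in the sources used here.

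The third pair fell in MYC MUT and not in SWP. COL4A6 had 2086, 2363 and 1689 normalized counts in MYC WT, 852, 904 and 895 in MYC MUT and 1623, 1977 and 1879 in SWP. COL4A5 had 2685, 2996 and 2176 in MYC WT, 1657, 1718 and 1594 in MYC MUT and 2414, 2419 and 2436 in SWP. The MYC MUT values of both genes lay below all others. COL4A6 fell to 43.2% of MYC WT, with -1.20 (standard error 0.12, adjusted p = 2.5e-05), and COL4A5 to 63.2%, with -0.65 (standard error 0.10, adjusted p = 0.00056). Their changes in SWP were -0.16 (adjusted p = 0.48) and -0.10 (adjusted p = 0.62), and the direct comparison of MYC MUT with SWP was -1.04 (standard error 0.12, adjusted p = 5.6e-05) and -0.55 (standard error 0.10, adjusted p = 0.0016). Other tested genes within 10 Mb of COL4A5 changed by a median of -0.15 in MYC MUT.

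**Figure D3:**
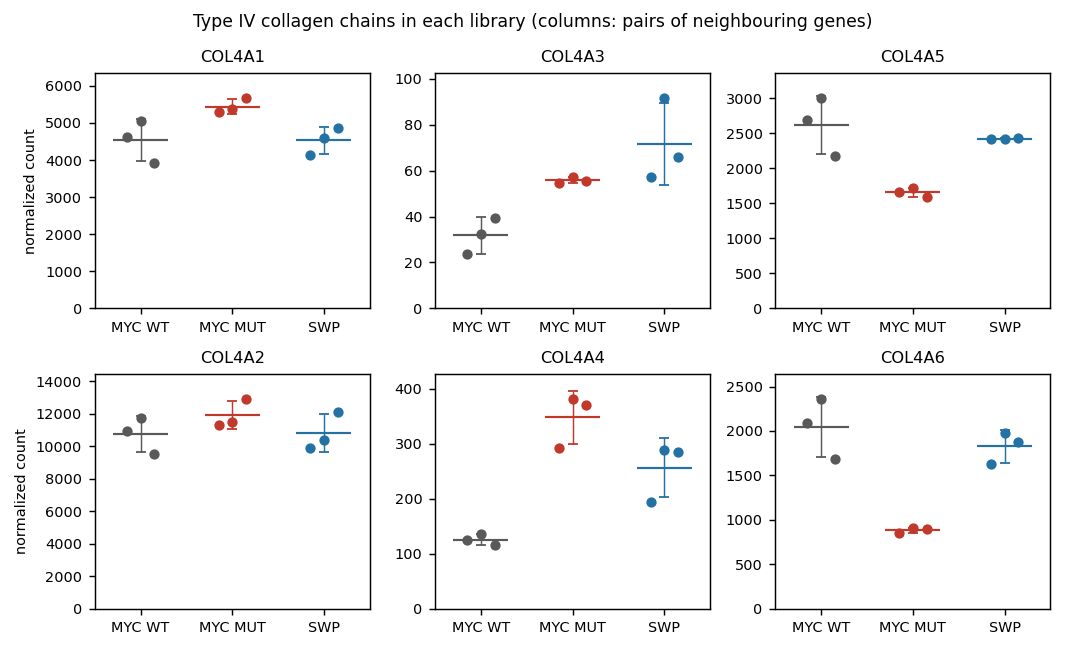
Normalized counts of the 6 type IV collagen chains in each library (dots), with the mean (line) and SD (bars) of each line (n = 3), and 1 column for each head-to-head gene pair. COL4A1 and COL4A2 stay near their MYC WT values, COL4A3 and COL4A4 are higher in both edited lines, and COL4A5 and COL4A6 are lower in MYC MUT.

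Of the chains of microfibril-forming type VI collagen, COL6A2 and COL6A5 rose in MYC MUT. COL6A1 and COL6A2 lie next to each other on chromosome 21 and their products join with another chain. COL6A2 had 3165, 3892 and 3069.9 normalized counts in MYC WT, 6160.1, 5850.3 and 6028 in MYC MUT and 1966, 2665 and 2919 in SWP, with MYC MUT above and SWP below all MYC WT libraries. Its changes were 0.84 (standard error 0.13, adjusted p = 0.00061) and -0.44 (standard error 0.13, adjusted p = 0.066), and MYC MUT exceeded SWP by 1.28 (standard error 0.13, adjusted p = 3.2e-05). COL6A1 had 9546, 11143 and 8789 in MYC WT, 11792, 11497 and 11854 in MYC MUT and 7441, 8626 and 9325 in SWP, with changes of 0.26 (adjusted p = 0.057) and -0.21 (adjusted p = 0.21). Their usual partner COL6A3 was near the minimum, at 14.4, 12.3 and 11.6 in MYC WT, 22.2, 13.6 and 12.7 in MYC MUT and 4.58, 2.97 and 5.77 in SWP. It was called lower in SWP (-1.37, standard error 0.32, adjusted p = 0.021), as was COL6A6 (-1.08, standard error 0.30, adjusted p = 0.045), another partner, at 16.0 in MYC WT and 7.10 in SWP. COL6A5 was called higher in MYC MUT, at 25.5 against 12.9. These 3 low genes lie outside the rule for named genes and were chosen after their values were seen. Their calls were not stable. That of COL6A3 in SWP was lost in 8 of 21 alternatives, leaving out any 1 MYC WT library or SWP replicate 2 among them, and that of COL6A6 in 17 of 21. That of COL6A5 in MYC MUT was lost in 5, among them without MYC WT replicate 2 and without replicate 1 or 3 of MYC MUT. COL26A1 fell to 55.0% in MYC MUT (-0.86, standard error 0.15, adjusted p = 0.0012) and was at 98.4% in SWP. COL7A1, the anchoring fibril of the skin, was not called.

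Fibril-associated collagens link fibrils to other matrix components. COL12A1, a large chain on the surface of type I fibrils, had the largest rise of any member: 47.2, 67.3 and 25.0 normalized counts in MYC WT, 990.0, 706 and 750.1 in MYC MUT and 10.3, 19.3 and 19.6 in SWP. The lowest MYC MUT library was more than an order of magnitude above the highest MYC WT library, and all SWP libraries lay below all MYC WT libraries. COL12A1 changed by 4.19 (standard error 0.34, adjusted p = 6.5e-06) in MYC MUT and by -1.39 (standard error 0.34, adjusted p = 0.024) in SWP, and the edited lines differed by 5.59 (standard error 0.34, adjusted p = 5.3e-07). The rise held in all 22 alternatives (3.81 to 4.51), whereas the SWP call was lost in 5 of them, among them those without MYC WT replicate 2 (-1.08, adjusted p = 0.083), without the libraries numbered 1 (-1.04, adjusted p = 0.067) and without MYC WT replicate 2 and SWP replicate 1 (-0.79, adjusted p = 0.076). COL14A1, its relative on the same fibrils, went the other way in MYC MUT, with 714, 699 and 523 in MYC WT, 332, 329 and 387 in MYC MUT and 506, 549.8 and 542 in SWP. That change was -0.88 (standard error 0.13, adjusted p = 0.00036), where other tested genes within 10 Mb had a median of -0.29. COL19A1, outside the rule for named genes, was also called lower in MYC MUT (-0.63, adjusted p = 0.014), except without MYC WT replicate 2 (-0.54). It shares 0.771% of its exon bases with LMBRD1 on the opposite strand, which had a mean of 1624 normalized counts against 74.0 for COL19A1.

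Of the type IX trimer of cartilage, only COL9A2 and COL9A3 could be tested. COL9A2 had 197, 204 and 231 normalized counts in MYC WT, 244, 229 and 238 in MYC MUT and 111, 127 and 114 in SWP, where every SWP library lay below the rest. It fell by 0.84 in SWP (standard error 0.12, adjusted p = 0.0012) and changed by 0.17 (adjusted p = 0.28) in MYC MUT. COL9A3 had 119, 269 and 247 in MYC WT, 117, 194 and 149 in MYC MUT and 53.8, 122 and 119 in SWP, with the lowest value of each line in replicate 1. Its change in SWP was -1.11 (standard error 0.36, adjusted p = 0.081 in limma). With all libraries, DESeq2 called COL9A3 lower in SWP (-1.06, adjusted p = 0.02), as did limma with the replicate number as a block (-1.11, adjusted p = 0.00049). It was also called lower there without MYC WT replicate 1 (-1.48) and without the libraries numbered 1 (-1.10). Without the libraries numbered 1 it was called lower in MYC MUT too (-0.60). In the blocked fit COL9A3 was also called higher in MYC MUT than in SWP (0.70, adjusted p = 0.00275). Other tested genes within 10 Mb of COL9A3 had a median of 0.43 in MYC MUT against SWP and 0.38 in MYC MUT against MYC WT. Those within 10 Mb of COL9A2 had a median of -0.31 in MYC MUT against MYC WT. The part of these neighbourhoods was not tested. COL9A3 shares 3.20% of its exon bases with TCFL5 on the opposite strand, a gene with a mean of 4009 normalized counts against 155 for COL9A3. COL16A1, near the minimum and outside the rule for named genes, was at 14.4, 11.2 and 16.4 in MYC WT and 4.58, 5.20 and 5.77 in SWP (-1.27, adjusted p = 0.016), a call that was lost in 4 of 21 alternatives, among them without MYC WT replicate 3.

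Collagens with a membrane-spanning segment, which sit on the cell surface and can be shed, were all called lower in MYC MUT where they could be tested. COL13A1, found at cell contacts with the matrix and the neuromuscular junction, had 333, 522 and 432 normalized counts in MYC WT, 107, 139 and 145 in MYC MUT and 197, 325 and 344 in SWP. COL23A1 had 178, 279 and 214 in MYC WT, 93.4, 79.7 and 81.8 in MYC MUT and 82.5, 175 and 199.5 in SWP. In both genes the MYC MUT libraries lay below all MYC WT libraries, and SWP replicate 1 was the lowest of its line. COL13A1 fell to 30.4% (-1.70, standard error 0.23, adjusted p = 0.00019) and COL23A1 to 38.0% (-1.37, standard error 0.29, adjusted p = 0.0034) of MYC WT. COL25A1, best known from neurons and outside the rule for named genes, fell by 0.73 in MYC MUT (adjusted p = 0.00041). In SWP the changes were -0.59 (adjusted p = 0.14) for COL13A1, -0.62 (adjusted p = 0.22) for COL23A1 and -0.15 (adjusted p = 0.45) for COL25A1. With the replicate number as a block, COL13A1 was called lower in SWP at the same change of -0.59 (adjusted p = 0.00467). That fit also called COL23A1 lower in MYC MUT than in SWP, at -0.74 (adjusted p = 0.020). So did edgeR and DESeq2 with all libraries, at -0.88 each (adjusted p = 0.0296 and 0.00773). Without the libraries numbered 1, COL13A1 was called lower in SWP too (-0.51). COL18A1, a basement membrane proteoglycan whose C-terminal fragment is endostatin, was at 7610.1 ± 732 (SD, n = 3) in MYC WT and 9638 in MYC MUT (0.34, standard error 0.09, adjusted p = 0.014), under the fold threshold. Its exons share 18.5% of their bases with SLC19A1 on the opposite strand, which was about as abundant.

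**Figure D4:**
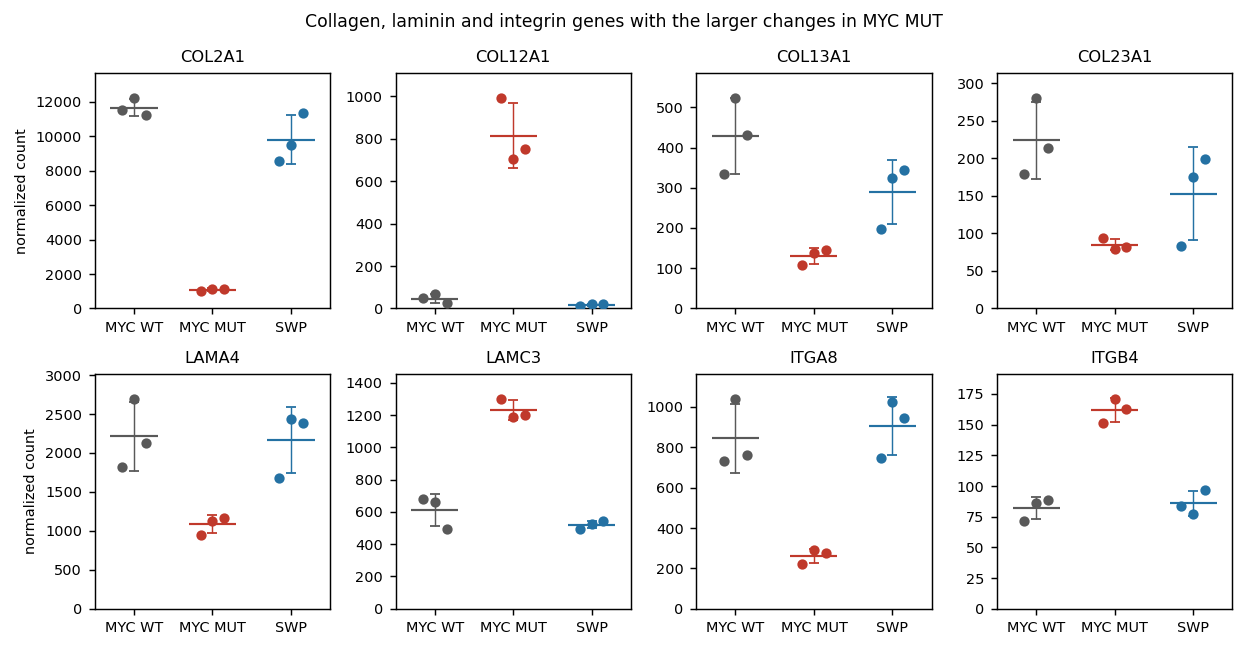
Normalized counts in each library (dots), with the mean (line) and SD (bars) of each line (n = 3), of 8 members with larger changes in MYC MUT. COL2A1, COL13A1, COL23A1, LAMA4 and ITGA8 are lower in MYC MUT, COL12A1, LAMC3 and ITGB4 are higher, and the SWP dots overlap those of MYC WT in every panel but that of COL12A1.

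Laminin chains were called in both directions in MYC MUT. The summed laminin count was 50349 ± 7606 (SD, n = 3) in MYC WT, 51000 ± 2067 in MYC MUT and 45183 ± 4446 in SWP, with overlapping ranges. LAMA4, the alpha chain typical of vessels and muscle, had 1824, 2696 and 2132 normalized counts in MYC WT, 951, 1127 and 1171 in MYC MUT and 1673, 2438 and 2385 in SWP. It fell to 48.8% of MYC WT in MYC MUT (-1.02, standard error 0.17, adjusted p = 0.00069), and MYC MUT also lay below SWP (-0.98, standard error 0.17, adjusted p = 0.00085). LAMA1 and LAMB1, the alpha and beta chains of the embryonic laminin 111, were called lower in MYC MUT, at -0.59 (standard error 0.16, adjusted p = 0.012) and -0.57 (standard error 0.16, adjusted p = 0.014). LAMA1 had 4264, 5658 and 3973 in MYC WT and 2959, 2865 and 3302 in MYC MUT, and LAMB1 had 10896, 14594 and 10378 in MYC WT and 7735, 7896 and 8231 in MYC MUT. For both, MYC WT replicate 2 was the highest, and without it neither was called (-0.44 and -0.42). LAMA5 and LAMB2 are the alpha and beta chains that replace them in the mature filtration barrier of the kidney. Their changes in MYC MUT were 0.44 (standard error 0.13, adjusted p = 0.021) and 0.40 (standard error 0.11, adjusted p = 0.015). The 3 MYC MUT values of each lay above those of MYC WT. Neither was called with all libraries, and both were without MYC WT replicate 2 (0.57 and 0.55). Other tested genes within 10 Mb of LAMA5 changed by a median of 0.38 in MYC MUT, and the part of this neighbourhood in its change was not tested. LAMC1, the common gamma chain, was at 21954 ± 2811 (SD, n = 3) in MYC WT, 26358 in MYC MUT and 19050.0 in SWP, and its change of 0.27 (adjusted p = 0.043) in MYC MUT was under the fold threshold.

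LAMC3, a gamma chain of nerve, retina and other tissues, had 678, 663 and 495 normalized counts in MYC WT, 1302, 1189 and 1200.1 in MYC MUT and 497, 527 and 541 in SWP. Each MYC MUT library was above each of the other lines, a change of 1.02 (standard error 0.12, adjusted p = 7.5e-05) against MYC WT and 1.24 (standard error 0.12, adjusted p = 1.6e-05) against SWP. LAMB3, the beta chain of the epithelial laminin 332, had the largest laminin rise but a mean under 50, and was singled out after its values were seen. It had 23.6, 10.1 and 10.6 in MYC WT, 120.2, 76.8 and 99.4 in MYC MUT and 11.5, 13.4 and 9.23 in SWP (2.74, standard error 0.32, adjusted p = 8.2e-05). LAMA3, the alpha chain it pairs with, was not called in MYC MUT (-0.02, adjusted p = 0.89). LAMA2 of muscle was called only between the edited lines, lower in MYC MUT than in SWP (-0.70, standard error 0.24, adjusted p = 0.040), a call lost in 7 of 21 alternatives, leaving out any 1 MYC MUT library among them. It was at 47.2 in MYC WT, 38.2 in MYC MUT and 62.8 in SWP. Other tested genes within 10 Mb of LAMA2 had a median of -0.40 in the same comparison, and their part was not tested.

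Integrin alpha subunits were sorted by the ligand of their receptors. ITGA8, whose receptor binds nephronectin in kidney development, was the only integrin called lower in MYC MUT. It had 731, 1041 and 759.5 normalized counts in MYC WT, 220.0, 289 and 275 in MYC MUT and 745, 1026 and 947 in SWP, with MYC WT and SWP overlapping. The MYC MUT mean was 31.0% of MYC WT (-1.68, standard error 0.17, adjusted p = 2.5e-05), and MYC MUT differed from SWP by -1.79 (standard error 0.17, adjusted p = 1.2e-05). Other tested genes within 10 Mb on chromosome 10 had a median of -0.32, and their part in the fall was not tested. The fibronectin receptor subunit ITGA5 and the vitronectin receptor subunit ITGAV were not called, at -0.38 (adjusted p = 0.034) and 0.11 (adjusted p = 0.28) in MYC MUT, and neither was ITGA2B.

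Laminin-binding subunits rose in MYC MUT except the most abundant one. ITGA7, the laminin receptor of muscle, had 459, 440.0 and 419 normalized counts in MYC WT, 884, 888 and 735 in MYC MUT and 478, 497 and 507 in SWP. ITGA3, the laminin receptor of podocytes and other epithelia, had 437, 504 and 432 in MYC WT, 739.5, 720.3 and 728 in MYC MUT and 410.1, 511 and 571 in SWP. MYC MUT lay above all other libraries for both genes, with changes of 0.92 (standard error 0.10, adjusted p = 4.2e-05) and 0.67 (standard error 0.12, adjusted p = 0.0014). ITGA7 shares 1.31% of its exon bases with BLOC1S1 on the opposite strand, which had a mean of 1947 normalized counts against 590 for ITGA7. Against SWP, ITGA7 differed by 0.75 (adjusted p = 0.00015) and ITGA3 by 0.56 (adjusted p = 0.0040), the latter not called without SWP replicate 1 (0.43). ITGA6 had a change of 0.08 (adjusted p = 0.59) in MYC MUT and 0.26 (adjusted p = 0.17) in SWP. ITGB4, which joins ITGA6 in hemidesmosomes, rose from 71.8, 86.4 and 88.6 in the MYC WT libraries to 152, 171 and 163 in MYC MUT (0.97, standard error 0.15, adjusted p = 0.00049) and was at 83.6, 77.3 and 96.9 in SWP.

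Among collagen-binding subunits, ITGA1 rose in MYC MUT from 774 to 1106 normalized counts (0.53, standard error 0.12, adjusted p = 0.0050), a call lost without MYC WT replicate 1 or 3 (0.49 and 0.43). ITGA1 encloses PELO, which shares 2.69% of its annotated exon bases on the same strand and had a mean of 3628 normalized counts against 885 for ITGA1. ITGA2 was not called (0.07, adjusted p = 0.59). ITGA10, the cartilage collagen receptor subunit, was called higher in MYC MUT at low counts (46.1 against 22.1), a call lost without MYC WT replicate 2 or 3 or MYC MUT replicate 1 or 2, and it lies outside the rule for named genes. ITGA9, which binds tenascin and other ligands, rose by 0.66 (standard error 0.19, adjusted p = 0.018), a call lost without MYC WT replicate 3 and without replicate 2 or 3 of MYC MUT (0.56 to 0.66). Of its exon bases, 9.23% are shared with the antisense gene ITGA9-AS1, which had a mean of 87.5 normalized counts. ITGA4, ITGAE and ITGAL were not called with all libraries, and without those numbered 1 ITGAL was called lower in MYC MUT (-0.97, adjusted p = 0.0453).

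The beta subunits differed from each other. ITGB1 had 13108, 14586 and 12609 normalized counts in MYC WT, 9802, 9580.3 and 9112 in MYC MUT and 12661, 14005 and 12939 in SWP. All MYC MUT libraries lay below the others, and the change of -0.50 (standard error 0.07, adjusted p = 0.00032) stopped just short of the fold threshold, which it passed in 5 of 22 alternatives. Other tested genes within 10 Mb of ITGB1 had a median of -0.32 in MYC MUT, and the part of this neighbourhood was not tested. ITGB1 made up 37.2% to 38.2% of all integrin counts in MYC WT, 29.0% to 30.5% in MYC MUT and 36.1% to 38.7% in SWP. The summed integrin count was 35546 ± 2552 (SD, n = 3), 31868 ± 407 and 35226 ± 2234 in these lines, and the MYC MUT libraries were below all others. ITGB2, the leukocyte beta subunit, was called higher in MYC MUT at low counts, 89.7, 97.2 and 124 against 61.5, 59.5 and 76.1 (0.64, standard error 0.20, adjusted p = 0.027), a call lost in 6 of 22 alternatives, among them those without MYC WT replicate 1 or 2 or MYC MUT replicate 2 or 3. ITGB3, of platelets and bone, had 61.9, 46.7 and 63.3 in MYC MUT against 18.5, 23.6 and 18.3 in MYC WT and 11.5, 12.6 and 18.5 in SWP (1.46, standard error 0.25, adjusted p = 0.00086), and was singled out after its values were seen. ITGB5 and ITGB8, partners of ITGAV, were not called in any comparison.

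Genes that work with these proteins were taken from 7 lists, and their counts are read against the share of all tested genes called, 11.3% higher and 10.1% lower in MYC MUT and 2.15% higher and 2.98% lower in SWP. Of 33 genes for collagen modification and secretion, all were tested, 4 were called higher and 2 lower in MYC MUT (12.1% and 6.06%), and 0 higher and 1 lower in SWP (3.03%), near or under the shares over all genes. TLL1, a procollagen C-proteinase, had the largest rise, from 74.8, 92.0 and 73.2 in MYC WT to 197, 240.1 and 223 in MYC MUT (1.45, standard error 0.18, adjusted p = 0.00014). The cross-linking enzyme LOXL1 had 159, 264 and 224 in MYC WT, 71.2, 78.7 and 96.4 in MYC MUT and 72.2, 138 and 129 in SWP, and was called lower in both edited lines, with changes of -1.36 (standard error 0.26, adjusted p = 0.0018) and -0.95 (standard error 0.26, adjusted p = 0.041), where the SWP call was lost in 13 of 22 alternatives, the omission of MYC WT replicate 2 (-0.79), MYC WT replicate 3 (-0.91) or SWP replicate 1 (-0.66) among them. Its relative LOX, named after its values were seen, rose from 1289 to 3071 (1.26, adjusted p = 8.8e-06).

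Of the 21 tested basement membrane partners, 3 were called higher and 5 lower in MYC MUT (14.3% and 23.8%, against 11.3% and 10.1% of all genes), and 0 higher and 2 lower in SWP (9.52% lower, against 2.98%). PXDN, the peroxidase that cross-links type IV collagen, had 2108, 2385 and 1627 normalized counts in MYC WT, 5574, 4957 and 4808 in MYC MUT and 1273, 1478 and 1533 in SWP. It rose by 1.34 (standard error 0.13, adjusted p = 2.1e-05) in MYC MUT and was called lower in SWP at the fold threshold (-0.50, adjusted p = 0.032). The SWP call of PXDN was lost in 16 of 22 alternatives, among them edgeR and DESeq2 with all libraries (-0.47 each) and leaving out any 1 SWP library. HSPG2, which encodes perlecan, fell from 1360.2, 2295 and 1174 to 534, 491 and 631 (-1.49, standard error 0.25, adjusted p = 0.00075). FBLN2, fibulin-2, was called in opposite directions, with 228, 295 and 239 in MYC WT, 396, 395 and 404 in MYC MUT and 72.2, 102 and 107 in SWP, with changes of 0.66 (standard error 0.16, adjusted p = 0.0082) and -1.44 (standard error 0.16, adjusted p = 0.00024).

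Other integrin ligands were called higher in MYC MUT in 11 of 21 tested genes and lower in 1 (52.4% and 4.76%, against 11.3% and 10.1% of all genes), and in SWP 0 were higher and 3 lower (14.3% lower, against 2.98%). The list's median log2 fold change was 0.90 in MYC MUT and -0.034 in SWP, against -0.003 and -0.055 over all genes. EDIL3, a ligand of ITGAV receptors, had 109, 191 and 119 normalized counts in MYC WT, 535, 567 and 493 in MYC MUT and 9.17, 8.17 and 1.15 in SWP. It rose in MYC MUT (1.96, standard error 0.48, adjusted p = 0.0078) and fell in SWP (-4.54, standard error 0.48, adjusted p = 0.00015). COMP, a cartilage matrix protein named after its values were seen, was also called in opposite directions, with changes of 0.97 (adjusted p = 0.0018) and -0.90 (adjusted p = 0.010). FBN2, fibrillin-2, fell by 0.59 in MYC MUT, a call lost without MYC WT replicate 2 (-0.46).

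Among 33 tested focal adhesion adaptors, 6 were called higher and 3 lower in MYC MUT (18.2% and 9.09%, against 11.3% and 10.1% of all genes), and 1 higher and 0 lower in SWP (3.03% higher, against 2.15%). TGFB1I1, a paxillin relative also known as Hic-5, had 22.6, 49.4 and 35.6 normalized counts in MYC WT, 104, 82.6 and 83.8 in MYC MUT and 81.3, 91.4 and 90.0 in SWP, and was higher in both, with changes of 1.36 (standard error 0.25, adjusted p = 0.0014) and 1.33 (standard error 0.25, adjusted p = 0.0061). FERMT1, kindlin-1, fell from 286 to 117 in MYC MUT (-1.26, standard error 0.18, adjusted p = 0.00026). Of 20 tested matrix proteases and inhibitors, 7 were called higher and 6 lower in MYC MUT (35% and 30%, against 11.3% and 10.1% of all genes), and 0 higher and 3 lower in SWP (15% lower, against 2.98%). MMP25 rose from 28.7 to 142 (2.28, standard error 0.19, adjusted p = 9.2e-06), and the protease inhibitor RECK fell from 1303 to 587 (-1.15, standard error 0.11, adjusted p = 1.9e-05). ADAMTS5, an aggrecanase, had 59.5, 76.3 and 78.9 in MYC WT, 214, 223 and 228 in MYC MUT and 4.58, 2.23 and 1.15 in SWP, a rise in the first edited line and a fall in the second, with changes of 1.63 (standard error 0.30, adjusted p = 0.0016) and -4.41 (standard error 0.30, adjusted p = 5.9e-06). At so few reads in SWP the size of the fall depends on the pseudocount, and over the alternatives it ran from -4.90 to -2.69.

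Of the 12 tested genes of the cartilage list, 2 were called higher and 2 lower in MYC MUT (16.7% each, against 11.3% and 10.1% of all genes), and 1 higher and 1 lower in SWP (8.33% each, against 2.15% and 2.98%), counts too small to set the list apart. RUNX3 fell from 290.1, 247 and 230.1 in MYC WT to 4.62, 3.89 and 2.92 in MYC MUT (-5.75, standard error 0.19, adjusted p = 1.7e-08) and was at 275, 253 and 332 in SWP. Over the alternatives its fall ran from -6.05 to -4.26. ACAN, the aggrecan core protein, rose from 10.3, 18.0 and 12.5 to 80.4, 79.7 and 92.5 in MYC MUT (2.58, adjusted p = 3.1e-05) and was called lower in SWP (-1.10, adjusted p = 0.023), where the second call was lost in 8 of 21 alternatives, among them without MYC WT replicate 2 or 3 or SWP replicate 2, and ACAN was named after its values were seen. HAPLN3 was called higher in SWP (0.51, adjusted p = 0.028), a call lost in 6 of 22 alternatives, among them without MYC WT replicate 1 or 3 or SWP replicate 2 or 3. Of the 7 tested collagen receptors outside the integrins, 1 was called higher and 2 lower in MYC MUT (14.3% and 28.6%, against 11.3% and 10.1% of all genes), and 1 higher and 0 lower in SWP (14.3% higher, against 2.15%), counts as small. DDR2, the discoidin receptor for fibrillar collagens, had 406, 1159.5 and 747 in MYC WT, 108, 198 and 221 in MYC MUT and 3163, 6109.7 and 6135 in SWP. The 3 lines did not overlap, and DDR2 fell in MYC MUT (-2.06, standard error 0.38, adjusted p = 0.0016) while it rose in SWP (2.80, standard error 0.38, adjusted p = 0.00095).

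**Figure D5:**
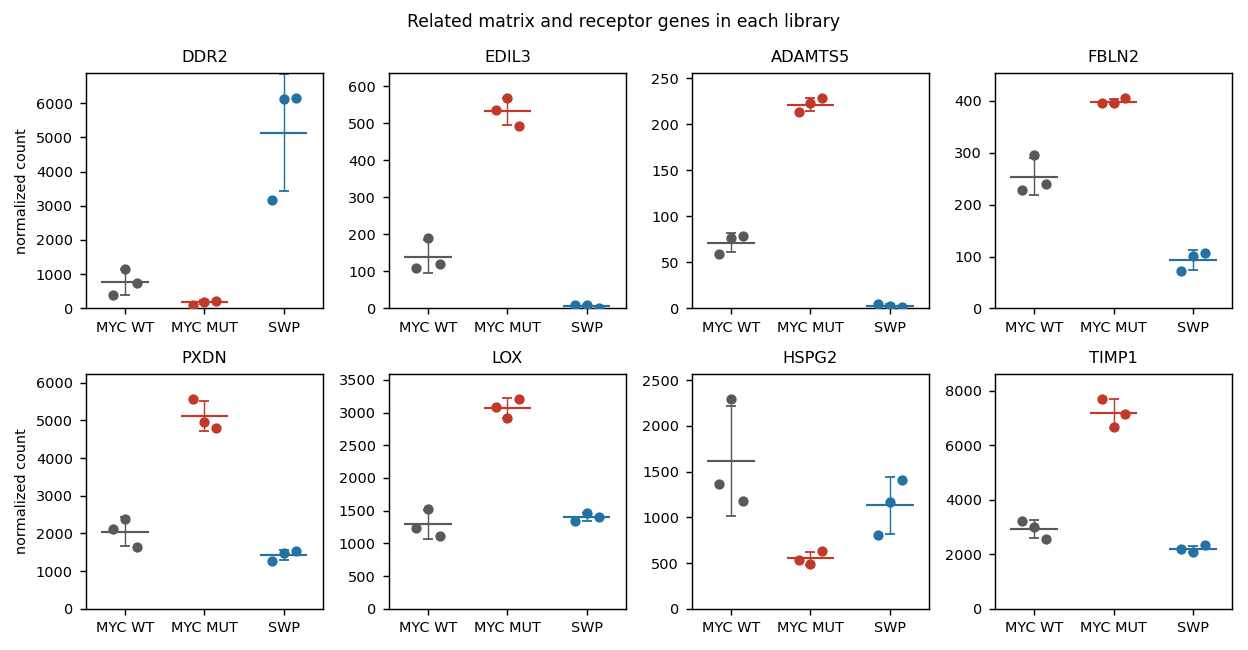
Normalized counts in each library (dots), with the mean (line) and SD (bars) of each line (n = 3), of 8 genes from the related lists. DDR2 is lower in MYC MUT and higher in SWP than in MYC WT, EDIL3, ADAMTS5, FBLN2 and PXDN are higher in MYC MUT and lower in SWP, LOX and TIMP1 are higher in MYC MUT and HSPG2 is lower there.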

How the data were processed

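Poly(A)-selected RNA of 9 HEK293T libraries (3 per line) was sequenced. The authors aligned the reads to hg38 with BWA 0.7.17-r2188 (per the labels), which does not splice, and deposited 1 signal per gene and library, a read count divided by a DESeq2 size factor. The counting tool and use of strand are not given in the sources used here. Every value was a whole number of reads within 0.01 of a read, so reads were recovered. Genes with a mean of at least 10 were fitted together (limma 3.58.1, R 4.3.3, trend, log2 with a pseudocount of 1, Benjamini-Hochberg over 20884 genes) and called at an adjusted p under 0.05 and a change beyond 0.5. edgeR 4.0.16 and DESeq2 1.42.0 on the recovered reads were alternatives, and all 3 steps were tested on simulated data. Symbols, exons and overlaps came from GENCODE release 44 and promoters from RefSeq.

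Samples were grouped by their labels. Deviations of same-numbered libraries correlated at 0.555, 0.403 and 0.102 between MYC WT and SWP, 0.333, 0.241 and 0.232 between MYC MUT and SWP, and 0.328, 0.146 and 0.049 between MYC WT and MYC MUT. The numbers were therefore taken to pair the libraries in the first 2 comparisons only, a choice that these values do not settle. Numbers that pair both of these lines with SWP would also pair MYC WT with MYC MUT, where the 3 same-numbered values were positive too. MYC WT 3 with SWP 3 (0.102) lay below the differently numbered MYC WT 3 with SWP 2 (0.166) and MYC WT 2 with SWP 3 (0.263). Likewise MYC WT 3 with MYC MUT 3 (0.049) lay below MYC WT 3 with MYC MUT 2 (0.154). The main fit holds no block, so its calls and p-values leave this pairing out. With 3 libraries against 3 an exact permutation test cannot go below 0.1, so none is given. The members, lists and tests were chosen with earlier results of these data known. Named genes were the called members with a mean of at least 50 and the largest change (up to 10 collagens, 6 laminins, 10 integrins), fixed partner chains, the 3 highest members of a class per kilobase in MYC WT, the largest rise and fall of each related list, and MYC. Alternatives covered normalization, pseudocount, filter, fold threshold, moderation, tool, replicate block and each left-out library. Values of 1 tested member are not reported here, and it is left out of the plots.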

Additional observations from a re-analysis of the deposited data

Results flagged for a closer look

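COL12A1 is listed here because the edited lines moved in opposite directions from MYC WT, a rise in MYC MUT and a fall in SWP, and the limma test of MYC MUT against SWP gave a log2 difference of 5.59 (adjusted p = 5.3e-07). The fall in SWP, from a mean of 46.5 to 16.4 normalized counts, did not hold without MYC WT replicate 2, as given above. The same pattern was seen for 7 genes of the related lists. The difference of MYC MUT against SWP was 1.84 for PXDN, 2.10 for FBLN2, 6.50 for EDIL3, 1.88 for COMP, 6.04 for ADAMTS5 and 3.68 for ACAN, each higher in MYC MUT. For DDR2 it was -4.86, lower in MYC MUT. All 8 comparisons passed the adjusted threshold in limma, and the SWP calls of COL12A1, PXDN and ACAN depended on single libraries and on the method. With all libraries, PXDN was not called in SWP by edgeR or DESeq2 (-0.47 each), nor ACAN by DESeq2 (-1.23, adjusted p = 0.0814). The COL12A1 call was lost when only the lines compared were fitted (-1.39, adjusted p = 0.0837 in limma). Groups of 3 libraries are too small for a test of single outlying values.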

How the results depend on the processing

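No result changed direction under any alternative where either value was called. With a log2 threshold of 1 in place of 0.5, 12 members were called in MYC MUT against MYC WT, 15 in MYC MUT against SWP, and 28 and 8 genes of the related lists in MYC MUT and SWP against MYC WT, fewer by construction. Fitting only the lines compared left 5 members in SWP against MYC WT, and the cause was not tested. Leaving out 1 library at a time gave 27 to 32 members in MYC MUT against MYC WT, 6 to 9 in SWP against MYC WT and 26 to 28 in MYC MUT against SWP. With the replicate number as a block the counts were 33, 11 and 30, and the block added ITGAL in MYC MUT against MYC WT. In that comparison the numbers were not taken to pair the libraries, a choice that is not settled, as given above. Of all other values, single genes included, 5575 kept their call or stayed within 1.5 times the count, 156 lost one and 62 gained one, and 58 counts of single lists or orders moved. The depth of 65024354 reads or more leaves genes near the minimum of 10 with wide errors, and the 20 members below it were not compared.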
